A study of Mus musculus with 9 samples.

Results

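The 85 genes described here encode subunits of the respiratory chain and of ATP synthase that are made from nuclear DNA. They were taken from the 22206 gene rows of the array by symbol alone (*Nduf*, *Sdh*, *Uqcr*, the *Cox4* to *Cox8* families, and *Atp5*), with 1 row for each gene. By these names 38 genes belong to complex I, 4 to complex II, 8 to complex III, 18 to complex IV, and 17 to complex V. *Ndufa4* is counted with complex I by its name, although its protein is now placed in complex IV.

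Total RNA came from the tibialis anterior (TA), a mainly fast muscle at the front of the shin, of 9 mice at P28, with 1 Clariom S array for each mouse. The 3 control mice carried the floxed *Mymk* gene (named 8c in the labels) without a Cre. The 3 Δ1w and the 3 Δ2w mice also carried *Pax7*creER, which acts in satellite cells (muscle stem cells), and were given tamoxifen at P0 (Δ1w) or P6 (Δ2w). The protein of *Mymk* is needed for muscle progenitors to fuse, and its loss leaves fewer nuclei in a myofiber. By the labels there were 233 nuclei per myofiber in control muscle, 55 in Δ1w muscle, and 100 in Δ2w muscle. Those nuclei were counted in another muscle of the leg, the extensor digitorum longus. For Δ2w muscle the paper gives that count at a later age than P28. In 2 control mice, 1 Δ1w mouse, and all 3 Δ2w mice a LacZ allele of *Mymk* stood beside the floxed allele, and the other mice were fl/fl. An mTmG reporter allele was carried by every mouse but Δ1w replicate 8. The labels record no tamoxifen for the control mice, whereas the methods give it to all mice. The *Mymk* signal fell by 3.68 (Δ1w, adjusted p = 0.00262) and fell by 4.23 (Δ2w, adjusted p = 0.00784) on the log2 scale in limma, each with a standard error of 0.42. No source used here says whether its probes lie in the deleted part.

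The respiratory chain passes electrons from NADH (complex I) and from succinate (complex II) through complex III to oxygen at complex IV, and pumps protons out of the mitochondrial matrix at complexes I, III, and IV. ATP synthase, complex V, lets the protons back and makes ATP. In skeletal muscle these enzymes are most abundant in slow and fast oxidative fibers, and several complex IV subunits exist in tissue-specific forms.

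None of the 85 subunit genes changed past the threshold (adjusted p under 0.05 in limma) in either group with fewer nuclei, and the values that were measured lay mostly a little below control. In Δ1w muscle the median difference of the 85 genes from control was −0.14 on the log2 scale (a change of −9.35%), and 63 of the 85 lay below control. In Δ2w muscle the median difference was −0.12 (−7.70%), and 69 of the 85 lay below control. The median over all 22206 gene rows was 0.00 in both comparisons. Below control lay 50.3% (Δ1w) and 50.7% (Δ2w) of all rows, against 74.1% and 81.2% of the 85 genes. The 3 genes with the smallest adjusted p were *Sdha*, the catalytic subunit of complex II, and *Ndufs1* and *Ndufv1*, which carry electrons from NADH in complex I, all in Δ1w muscle.

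**Figure D1:**
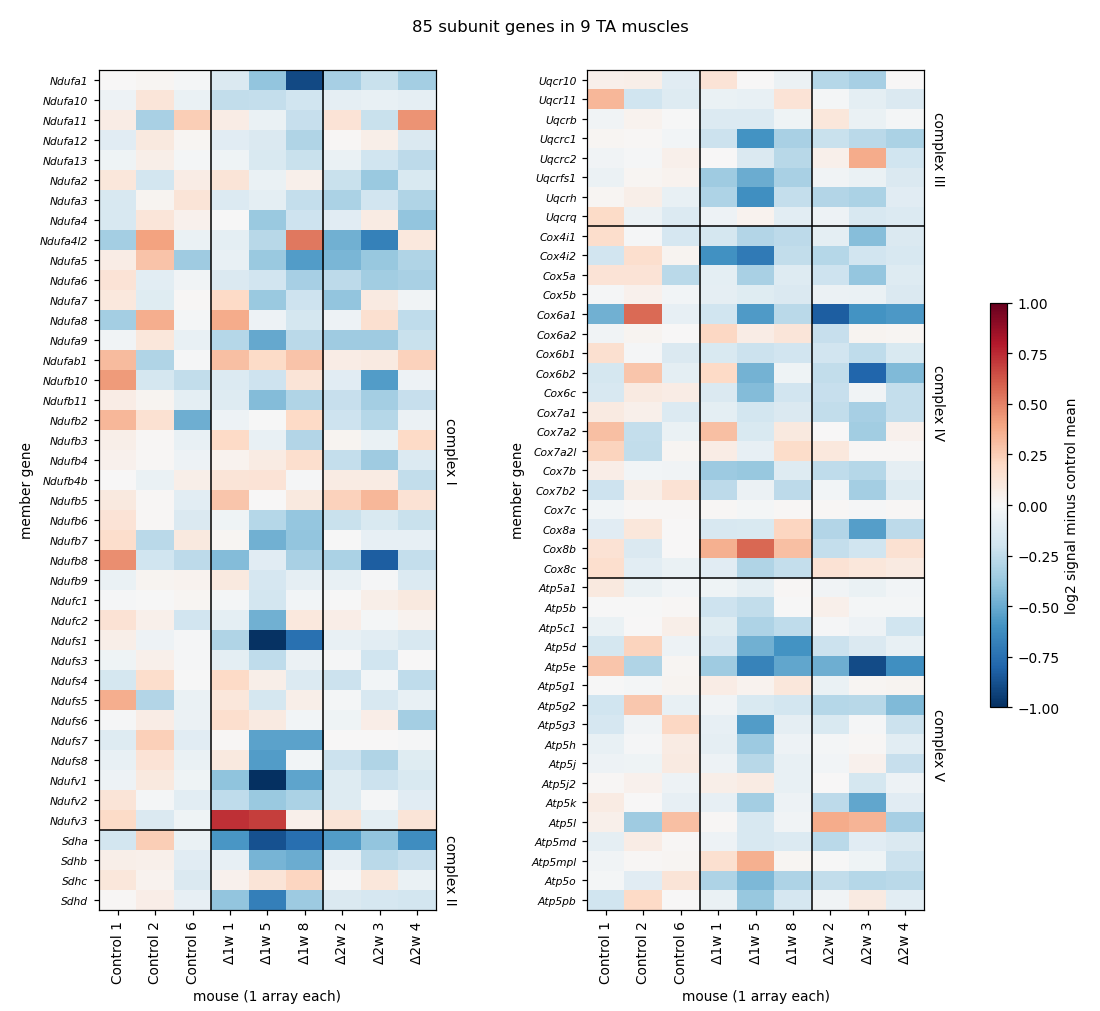
Each row is 1 of the 85 subunit genes and each column 1 mouse; the colour is the log2 signal minus the mean of the 3 control mice, with the darkest colours also standing for values past the ends of the scale, and with lines between groups and between complexes. Blue cells are frequent in the Δ1w and Δ2w columns, most of all in Δ1w replicate 5, which was the lowest of the 9 mice for 30 genes, and red cells stand out for *Ndufv3* and *Cox8b* in Δ1w muscle.

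Promoter sequence is shown for 6 of the genes to which the results return, with the letters of sites known from nuclear respiratory genes in capitals. These are the flavoprotein *Sdha* and the membrane anchor *Sdhd* of complex II, the core subunit *Uqcrc1* and the Rieske iron-sulphur protein *Uqcrfs1* of complex III, *Atp5e*, the epsilon subunit of ATP synthase, and *Cox8b*, the muscle form of a small complex IV subunit. Each window runs from 100 bases before to 50 bases after the start of the gene and is written 5′ to 3′ along the gene (RefSeq, GRCm38.p6).
Sdha: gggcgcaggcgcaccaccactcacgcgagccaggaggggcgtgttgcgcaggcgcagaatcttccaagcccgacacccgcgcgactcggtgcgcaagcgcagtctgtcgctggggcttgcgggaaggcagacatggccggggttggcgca
Sdhd: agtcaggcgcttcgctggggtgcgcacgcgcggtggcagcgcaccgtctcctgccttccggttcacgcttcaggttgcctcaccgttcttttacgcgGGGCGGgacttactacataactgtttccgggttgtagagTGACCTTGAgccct
Uqcrc1: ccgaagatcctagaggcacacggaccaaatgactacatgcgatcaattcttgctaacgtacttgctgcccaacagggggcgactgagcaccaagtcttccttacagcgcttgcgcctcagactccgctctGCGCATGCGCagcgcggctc
Uqcrfs1: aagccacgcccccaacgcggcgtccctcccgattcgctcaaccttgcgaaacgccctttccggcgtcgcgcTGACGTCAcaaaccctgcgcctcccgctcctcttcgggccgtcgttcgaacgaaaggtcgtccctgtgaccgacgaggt
Atp5e: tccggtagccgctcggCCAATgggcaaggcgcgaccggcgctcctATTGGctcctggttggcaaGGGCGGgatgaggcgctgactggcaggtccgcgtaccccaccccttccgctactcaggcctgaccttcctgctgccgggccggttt
Cox8b: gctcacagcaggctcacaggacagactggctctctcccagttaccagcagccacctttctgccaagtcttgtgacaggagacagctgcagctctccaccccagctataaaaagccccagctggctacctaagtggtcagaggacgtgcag

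The windows lie at chr13:74350191-74350340 on the minus strand (*Sdha*), chr9:50603800-50603949 on the minus strand (*Sdhd*), chr9:108936548-108936697 on the plus strand (*Uqcrc1*), chr13:30545267-30545416 on the minus strand (*Uqcrfs1*), chr2:174464052-174464201 on the minus strand (*Atp5e*), and chr7:140900397-140900546 on the minus strand (*Cox8b*). In *Sdhd* the capitals mark GGGCGG, the letters bound by SP1, and then TGACCTTGA, the reverse complement of the letters TCAAGGTCA bound by estrogen-related receptors (ERR). In *Uqcrc1* they mark overlapping copies of GCGCATGC and its reverse complement, the core bound by NRF1. In *Uqcrfs1* they mark TGACGTCA, the letters bound by CREB, and in *Atp5e* CCAAT and its reverse complement ATTGG, bound by NFY, followed by GGGCGG. *Sdha* and *Cox8b* hold none of the searched letters in these 150 bases.

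Over the longer windows of 300 bases (250 before the start to 50 after it), 70 of the 85 genes had a RefSeq window, with 75 windows in all, and both strands were searched. The NRF1 core was in 10 of the 75 windows, or 13.3% (95% exact binomial interval 6.58 to 23.2%), against 2.71% of all 32851 windows. That interval takes windows as independent, although some genes had several and windows of the same gene can overlap. AAGATGGC, the letters bound by YY1, was also in 10 windows (13.3%), against 2.75% of all windows. The ERR letters were in 2 windows (2.67%), those of *Sdhd* and *Atp5g3*, against 0.423% of all.

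CCGGAAGT, bound by GABPA and other ETS factors, was in 5 windows (6.67%) against 3.89% of all, and TGACGTCA in 4 (5.33%) against 1.79%. GGGCGG was in 40.0% of the members' windows and 35.7% of all windows, and CCAAT in 41.3% and 37.4%. A match is a description of the letters and not of binding, and some genes share more than 1 of these sites.

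Complex I takes electrons from NADH through the flavin of Ndufv1 and the iron-sulphur clusters of Ndufs1. The signal of *Ndufs1* was 14.79, 14.69, and 14.73 in the control mice, 14.43, 13.75, and 13.99 in the Δ1w mice, and 14.67, 14.63, and 14.57 in the Δ2w mice. Every Δ1w mouse lay below every Δ2w mouse, and every Δ2w mouse below every control mouse. Against control the Δ1w difference was −0.68 (standard error 0.19, limma adjusted p = 0.109), and the Δ2w difference was −0.11 (standard error 0.19).

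*Ndufv1* showed the same order of the groups. It was at 15.81, 15.96, and 15.82 in control muscle, 15.46, 14.69, and 15.34 in Δ1w muscle, and 15.74, 15.65, and 15.71 in Δ2w muscle. The Δ1w difference was −0.70 (standard error 0.20, limma adjusted p = 0.126), and the Δ2w difference was −0.17. The values of Δ1w replicate 5 were the lowest of the 9 mice for both genes.

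The Δ1w and Δ2w mice share no array and no number prefix in their sample names. Between them *Ndufs1* differed by −0.57 (95% interval −0.97 to −0.16) and *Ndufv1* by −0.54 (95% interval −0.98 to −0.10). These were the lowest values of the 85 genes in that comparison, and neither passed the adjustment (adjusted p = 0.460 and 0.508 from limma). In Δ1w muscle the other complex I subunits lay closer to control.

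The median difference of the 38 complex I genes was −0.14 in Δ1w muscle and −0.11 in Δ2w muscle, with 26 and 30 genes below control. Without Δ1w replicate 5 the Δ1w median was −0.063. All 3 mice of a group lay below all 3 control mice for 12 complex I genes in Δ1w muscle and 12 in Δ2w muscle (31.6% each), against 8.95% and 7.25% of all gene rows. In both counts was *Ndufa6*, an accessory subunit outside the catalytic core, with values of 14.18, 13.94, and 14.01 in control, 13.90, 13.85, and 13.71 in Δ1w, and 13.78, 13.70, and 13.71 in Δ2w muscle. *Ndufb8*, a subunit of the membrane arm, had the lowest difference of complex I in Δ2w muscle (−0.46, standard error 0.23), but its groups overlapped, and control replicate 1 (10.96) stood above the other control mice (10.29 and 10.23).

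*Ndufv3*, an accessory subunit at the NADH end of complex I, was chosen after its values were seen, as the highest difference among the 85 genes in Δ1w muscle. It was at 10.20, 9.86, and 9.96 in control muscle, 10.74, 10.70, and 10.06 in Δ1w muscle, and 10.14, 9.91, and 10.14 in Δ2w muscle. Only Δ1w replicates 1 and 5 lay above the control range, and the difference of 0.49 (standard error 0.21) had an adjusted p of 0.309 from limma. *Ndufb5*, a membrane arm subunit also chosen after its values were seen, was the single gene of the 85 whose Δ2w mice all lay above the control mice, by 0.24 (standard error 0.16). *Ndufa4* differed from control by −0.20 and −0.14, with overlapping groups. *Ndufa4l2*, a relative of *Ndufa4* that low oxygen induces, differed by 0.05 and −0.35 in Δ1w and Δ2w muscle, also with overlapping groups.

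Complex II oxidises succinate and is the only one of the complexes whose subunits are all encoded in the nucleus. *Sdha*, which holds the flavin, was at 13.03, 13.45, and 13.14 in control muscle, 12.62, 12.34, and 12.45 in Δ1w muscle, and 12.64, 12.81, and 12.59 in Δ2w muscle. All 6 mice with fewer nuclei lay below all 3 control mice, while the Δ1w and Δ2w mice overlapped. The Δ1w difference was −0.74 (standard error 0.17, a change of −40.0%, limma adjusted p = 0.0623), and the Δ2w difference was −0.53 (standard error 0.17, −30.6%, limma adjusted p = 0.546).

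*Sdhd*, which anchors the enzyme in the inner membrane, was at 14.66, 14.71, and 14.57 in control muscle, 14.25, 13.97, and 14.29 in Δ1w muscle, and 14.50, 14.48, and 14.46 in Δ2w muscle. The 3 groups did not overlap, with Δ1w lowest and control highest. The differences were −0.48 (standard error 0.16, adjusted p = 0.178 from limma) and −0.17 (standard error 0.16). *Sdhb*, the iron-sulphur subunit, differed by −0.35 and −0.19, and its groups overlapped.

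*Sdhc*, the partner of *Sdhd* in the membrane anchor, lay on the other side, at 14.20, 14.13, and 13.95 in control, 14.13, 14.22, and 14.31 in Δ1w, and 14.08, 14.21, and 14.02 in Δ2w muscle. Its differences were 0.13 and 0.01, with 95% intervals of −0.21 to 0.47 and −0.33 to 0.35. The complex II median was −0.41 in Δ1w muscle, the lowest of the 5 complexes, and −0.18 in Δ2w muscle, and it rests on 4 genes.

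**Figure D2:**
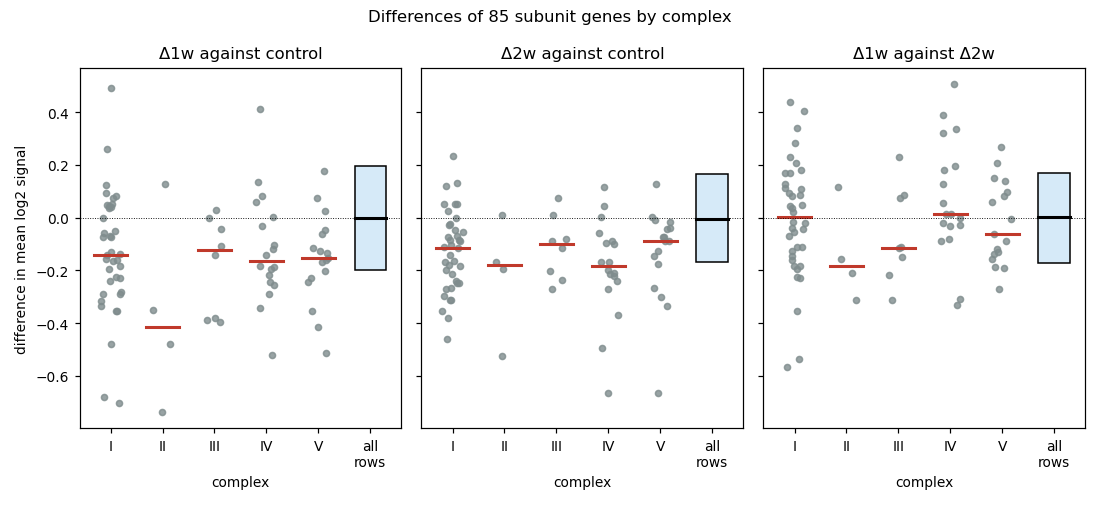
Each point is the difference in mean log2 signal of 1 gene between 2 groups of 3 mice, by complex; red lines are medians over the genes of a complex, and the box spans the lower to the upper quartile of all 22206 gene rows, with their median. In both comparisons with control the 5 medians lie below 0, with complex II lowest in Δ1w muscle (−0.41), and in Δ1w against Δ2w muscle they lie on both sides of 0.

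Complex III passes electrons from ubiquinol to cytochrome c. *Uqcrfs1*, the Rieske protein, was at 14.57, 14.65, and 14.66 in control muscle, 14.27, 14.13, and 14.30 in Δ1w muscle, and 14.59, 14.56, and 14.48 in Δ2w muscle. The Δ1w mice lay below all the others, and the Δ2w mice overlapped the control mice. The Δ1w difference was −0.39 (standard error 0.15, limma adjusted p = 0.252), and the Δ2w difference was −0.08.

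*Uqcrc1*, a core subunit, was at 16.07, 16.06, and 16.02 in control muscle, 15.83, 15.45, and 15.73 in Δ1w muscle, and 15.83, 15.78, and 15.73 in Δ2w muscle. Both groups lay below the control mice, with differences of −0.38 and −0.27. Its partner in the core, *Uqcrc2*, had overlapping groups and differences of −0.14 and 0.08. *Uqcrh*, the hinge protein near cytochrome c1, differed by −0.39 and −0.24 with no overlap with control in either group, and the small subunit *Uqcr10* by 0.03 and −0.20 with overlap in both. The median of the 8 complex III genes was −0.12 in Δ1w and −0.10 in Δ2w muscle, and the latter lay between −0.17 and −0.064 when any 1 mouse was left out (lowest without control replicate 6, −0.16 without control replicate 2, highest without control replicate 1).

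Complex IV reduces oxygen to water, and for subunits 6a, 7a, and 8 the mouse has a form of heart and muscle beside a form of other tissues. *Cox8b*, a muscle form, was at 15.83, 15.54, and 15.69 in control muscle, 16.04, 16.26, and 15.99 in Δ1w muscle, and 15.45, 15.48, and 15.84 in Δ2w muscle. Every Δ1w mouse lay above every other mouse. The difference was 0.41 from control (standard error 0.17, adjusted p = 0.317 from limma) and 0.51 from Δ2w muscle (95% interval 0.13 to 0.89, adjusted p = 0.471 from limma).

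*Cox8a*, the form of other tissues, was at 14.10, 14.32, and 14.22 in control, 14.06, 14.06, and 14.42 in Δ1w, and 13.92, 13.66, and 13.95 in Δ2w muscle. It was the Δ2w mice that lay apart here, below all the others, with a difference of −0.37 from control (standard error 0.17), and the Δ1w mice overlapped the control mice. *Cox6a2*, the muscle form of subunit 6a, was near the ceiling of the array (19.08 to 19.14 in control muscle), so that a difference would be compressed, and it differed by 0.14 in Δ1w and −0.06 in Δ2w muscle. Its Δ1w values lay above those of all other mice, and its Δ2w values overlapped control.

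*Cox6a1*, the general form of the same subunit, had its lowest values in Δ2w muscle. It was at 12.23, 13.27, and 12.62 in control muscle, 12.51, 12.14, and 12.44 in Δ1w muscle, and 11.89, 12.11, and 12.14 in Δ2w muscle. The Δ2w mice lay below the control mice with a difference of −0.66 (standard error 0.24, adjusted p = 0.585 from limma), and control replicate 2 stood above the other control mice. The Δ1w difference was −0.34, and the groups overlapped.

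Of subunit 7a, the muscle form *Cox7a1* differed from control by −0.14 in Δ1w and −0.27 in Δ2w muscle, the general form *Cox7a2* by 0.08 and −0.10, and *Cox7a2l*, which joins complexes III and IV into supercomplexes, by 0.06 and 0.04. Among these only the Δ2w mice for *Cox7a1* did not overlap the control mice. *Cox4i1*, the general form of subunit 4, differed by −0.24 and −0.22, and *Cox6b1*, which faces cytochrome c, by −0.19 and −0.20. Wholly below control lay the Δ1w mice for both of these genes and the Δ2w mice for *Cox6b1* only.

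*Cox4i2*, a form of subunit 4 found mainly in lung, was at 7.09, 7.46, and 7.31 in control, 6.68, 6.58, and 7.04 in Δ1w, and 7.0, 7.09, and 7.13 in Δ2w muscle. The Δ1w mice lay below the control mice, with a difference of −0.52 (standard error 0.18, adjusted p = 0.195 from limma). The forms *Cox6b2* and *Cox8c* are known from testis. *Cox6b2* was under a log2 signal of 6 in all mice and *Cox8c* lay between 7.40 and 7.87. *Cox6b2* differed by −0.10 in Δ1w muscle, where the groups overlapped, and by −0.49 in Δ2w muscle, where all mice lay below control (adjusted p = 0.669 from limma). *Cox8c* differed by −0.22 in Δ1w muscle, with all mice below control, and by 0.12 in Δ2w muscle, with overlapping groups. The complex IV median was −0.16 in Δ1w muscle and −0.18 in Δ2w muscle, and without control replicate 2 the Δ1w median was −0.11.

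ATP synthase joins a catalytic head of alpha and beta subunits to a turning ring of c subunits. *Atp5e*, whose epsilon subunit sits on the central stalk, was at 12.21, 11.62, and 11.94 in control muscle, 11.57, 11.25, and 11.40 in Δ1w muscle, and 11.44, 11.03, and 11.31 in Δ2w muscle. Both groups lay below the control mice and overlapped each other. The Δ1w difference was −0.51 (standard error 0.19, limma adjusted p = 0.255), and the Δ2w difference was −0.66 (standard error 0.19, limma adjusted p = 0.492), the latter the smallest adjusted p of the 85 genes in Δ2w muscle.

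The head subunits *Atp5a1* (alpha) and *Atp5b* (beta) stayed close to control in both groups, with differences of −0.05 and −0.04 for the former and −0.15 and 0.00 for the latter, and *Atp5b* was near the ceiling of the array. *Atp5d*, the delta subunit of the stalk, differed by −0.41 in Δ1w muscle (standard error 0.18) with overlapping groups. *Atp5g2*, a gene for the c ring, lay below all control mice in Δ2w muscle only, with a difference of −0.33 (standard error 0.17). *Atp5mpl*, a small membrane subunit, lay above all control mice in Δ1w muscle, by 0.18 (standard error 0.16). The complex V median was −0.15 in Δ1w muscle (−0.088 without Δ1w replicate 5) and −0.088 in Δ2w muscle (−0.052 without Δ2w replicate 4).

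**Figure D3:**
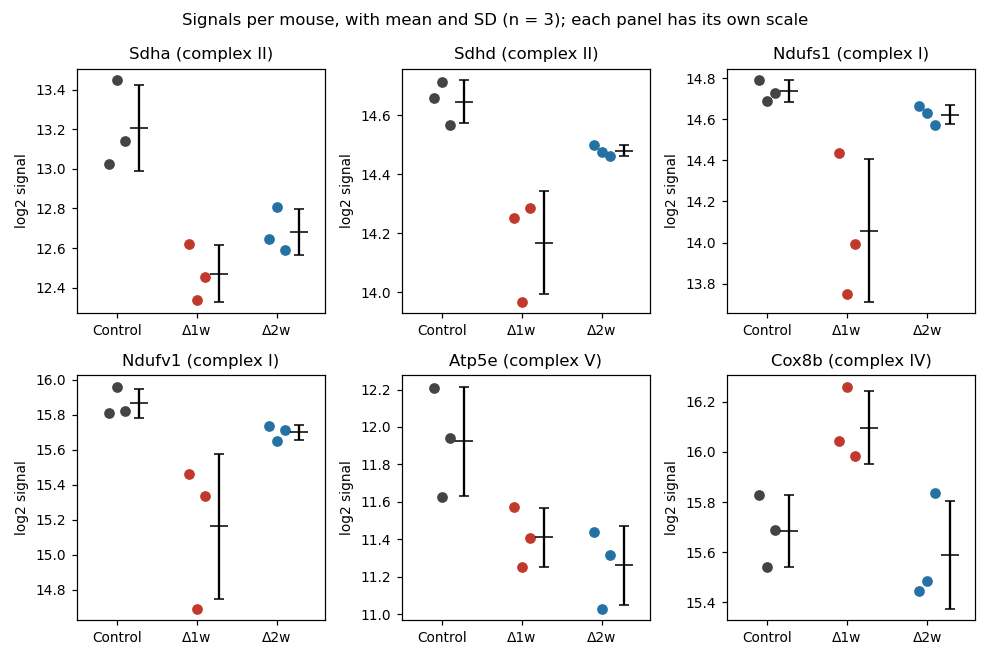
Points are the log2 signals of the 3 control (grey), 3 Δ1w (red), and 3 Δ2w (blue) mice for 6 genes, with mean and SD beside them; each panel has its own scale, which does not start at 0. *Sdha* and *Atp5e* were lower in both groups than in control muscle, *Ndufs1*, *Ndufv1*, and *Sdhd* lay in the order Δ1w, Δ2w, control, and *Cox8b* was highest in Δ1w muscle.

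In counts over the 85 genes, limma called 0 in Δ1w against control, where 1.41% of all gene rows were called, 0 in Δ2w against control (0.045% of all rows), and 0 in Δ1w against Δ2w (0.0045% of all rows). At an unadjusted p under 0.05, 15 genes differed in Δ1w against control, 13 of them lower, or 17.6% against a background of 14.0% of all rows. The lower genes alone were 15.3%, against 6.79% of all rows. The count in both directions was 4 in Δ2w against control, all lower, or 4.71% against 7.47% (3.49% of all rows were lower). It was 4 in Δ1w against Δ2w, 2 in each direction, or 4.71% against 8.29%. The methods list an unpaired t-test among their general statistics and name no such test for the arrays. At an unadjusted p under 0.05 this t-test gave 19 genes in Δ1w against control (22.4%, against 9.70% of all rows), 18 in Δ2w against control (21.2%, against 7.57%), and 11 in Δ1w against Δ2w (12.9%, against 6.94%). After Benjamini-Hochberg adjustment it gave 0 in each comparison.

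Groups that did not overlap were counted in each direction. In Δ1w against control 28 genes (32.9%) had all 3 mice below all 3 control mice, against 8.95% of all rows, and 4 genes lay above, against 8.53%. In Δ2w against control 28 genes (32.9%) lay below, against 7.25% of all rows, and 1 lay above, against 7.52%. Both comparisons use the same 3 control arrays, so that their counts are not independent of each other. In Δ1w against Δ2w, 9 genes lay below (background 6.97%) and 11 above (background 7.20%).

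The genes of these complexes are bright on the array, and 73 of the 85 had a mean log2 signal of at least 12. Among all 1963 gene rows that bright, 18.9% lay wholly below control in Δ1w muscle and 10.7% in Δ2w muscle, and the median differences were −0.05 and −0.01. When the table was quantile normalized a second time, 17 genes in place of 28 lay wholly below control in Δ1w muscle and 21 in Δ2w muscle. The share of all rows that lay wholly below control was not computed after that step. The median difference in Δ1w muscle was then −0.092, and it was −0.18 when each array was centred on its own median.

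The precision of single genes set a limit on what could be seen. In Δ1w against control the 95% interval of the difference lay within a 2-fold change in either direction for 82 of the 85 genes, and within a 1.5-fold change for 53. In Δ2w against control these counts were 83 and 56, and between the Δ1w and Δ2w mice they were 84 and 56. No gene of the 85 differed by 2-fold, where 1.93%, 0.527%, and 0.716% of all rows did.

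Some calls depended on the model. *Sdha* in Δ1w muscle had an adjusted p between 0.0220 and 0.193 over 18 alternatives and was called in 4 of them: with a trended and robust variance (0.0220), with rows under a mean log2 signal of 6 left out (0.0337), with the LacZ allele as a covariate (0.0360), and without Δ1w replicate 1 (0.0485). *Ndufs1* was called in 2 (range 0.0254 to 0.307, lowest without Δ1w replicate 1 and 0.0376 with a trended and robust variance). *Ndufv1* was also called in 2 (range 0.0434 to 0.316, with a trended and robust variance and, at 0.0454, with the LacZ allele as a covariate). No other gene that the text describes by rule was called in any alternative, and none was in Δ2w against control.

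The mice did not contribute equally. Δ1w replicate 5 had the lowest signal of all 9 mice for 30 of the 85 genes (35.3%, against 14.8% of all gene rows), Δ2w replicate 3 for 19 (22.4%, against 9.06%), and Δ1w replicate 1 for 1. Control replicates 1 and 2 had the highest signal for 26 and 25 genes (30.6% and 29.4%, against 11.2% and 14.2% of all gene rows), and control replicate 6 for 8. Taken as the median over the 85 genes of the signal minus the control mean, the control mice stood at 0.01, 0.02, and −0.03, the Δ1w mice at −0.08, −0.21, and −0.14, and the Δ2w mice at −0.10, −0.15, and −0.14. Every mouse with fewer nuclei thus lay below every control mouse in this median.

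Without Δ1w replicate 5 the median difference in Δ1w muscle was −0.094 in place of −0.14, and 5 genes in place of 15 had an unadjusted p under 0.05. That count was 8 without control replicate 2 and 8 without control replicate 6. The share of all rows at this threshold was not computed with a mouse left out. The Δ1w mice share no number prefix in their sample names with the control mice or with the Δ2w mice. Prefix and group thus cannot be told apart in either of these comparisons. Within the prefix shared by 2 control mice and the 3 Δ2w mice, the median difference of Δ2w muscle from control was −0.13, against −0.12 over all mice.

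Assembly factors build the complexes without being part of them, and their signals lay about control. Of 45 measured assembly factors (of 48 listed) the median difference was 0.03 in Δ1w and 0.02 in Δ2w muscle, and 19 and 21 of them lay below control. *Cox19*, a copper-handling protein of the intermembrane space needed for complex IV, rose in Δ1w muscle. It was at 9.79, 9.39, and 9.38 in control muscle, 10.41, 10.58, and 10.69 in Δ1w muscle, and 9.83, 9.82, and 10.35 in Δ2w muscle. The Δ1w difference was 1.04 (standard error 0.20, limma adjusted p = 0.0262). *Cox19* was the only assembly factor called, or 2.22% of the 45, against 1.41% of all rows in Δ1w against control.

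*Cox11*, another copper protein of complex IV assembly, lay below control in both groups (−0.44 and −0.25), and *Coa7* likewise (−0.75 and −0.41), neither past the threshold. *Coa7* was dim, at a mean log2 signal of 5.57, with its lowest value of 4.64 in Δ1w replicate 1. Among 13 measured electron carriers and ATP exchange proteins (of 14 listed), 12 lay below control in Δ1w muscle and 9 in Δ2w muscle. Their medians were −0.10 and −0.03, and 0 were called (1.41% and 0.045% of all rows were). *Gpd2*, which brings electrons from cytosolic NADH to ubiquinone, was at 14.87, 14.67, and 14.89 in control, 14.33, 13.91, and 14.06 in Δ1w, and 14.94, 14.90, and 14.39 in Δ2w muscle, a Δ1w difference of −0.71 (standard error 0.19, limma adjusted p = 0.109). Cytochrome c1 (*Cyc1*), the electron-carrying heme protein of complex III whose symbol the selection did not take in, differed by −0.51 and −0.29, and *Vdac1*, the main pore of the outer membrane, by −0.23 and −0.06.

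Of 17 measured regulators of mitochondrial biogenesis (of 18 listed), 0 were called, against 1.41% (Δ1w) and 0.045% (Δ2w) of all rows. Their medians were −0.06 in Δ1w and −0.07 in Δ2w muscle. *Ppargc1a*, the coactivator that drives mitochondrial gene expression in muscle, was at 13.62, 13.89, and 13.90 in control, 13.55, 12.72, and 13.75 in Δ1w, and 13.61, 13.76, and 13.69 in Δ2w muscle. Only Δ1w replicate 5 lay far from the rest. *Perm1*, a muscle partner of the same pathway, differed by 0.55 in Δ1w muscle (standard error 0.22) with overlapping groups.

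Markers of fiber type and of other cells were read from the same arrays. Of 11 slow fiber genes 10 lay above control in Δ1w muscle (median difference 1.49), and 6 were called higher in limma (1.41% of all rows were called). In Δ2w muscle 5 lay above control (median −0.27), and 0 were called (0.045% of all rows). The mean log2 signal of the slow fiber genes ran from 11.50 to 12.04 in control, 12.97 to 13.92 in Δ1w, and 11.33 to 12.19 in Δ2w muscle. None of 13 fast fiber genes was called in limma. At an unadjusted p under 0.05 in limma 1 stood in Δ1w muscle (14.0% of all rows) and 0 in Δ2w muscle (7.47% of all rows). The fast fiber medians were −0.01 and 0.01, and several of these genes were at the ceiling of the array. All 6 measured fibroblast genes lay above control in both groups. In limma 6 had an unadjusted p under 0.05 in Δ1w muscle (14.0% of all rows) and 2 in Δ2w muscle (7.47% of all rows). Of the 6, 1 was called in Δ1w muscle (*Dpt*, a matrix protein, by 1.43, adjusted p = 0.0270 from limma). The fibroblast medians were 0.98 in Δ1w and 0.58 in Δ2w muscle. Their mean log2 signals were 14.67 to 15.42 in control, 15.54 to 16.57 in Δ1w, and 15.23 to 15.83 in Δ2w muscle. Of 7 measured macrophage genes 0 were called in limma (1.41% and 0.045% of all rows were). At an unadjusted p under 0.05 in limma 3 stood in Δ1w muscle (14.0% of all rows) and 1 in Δ2w muscle (7.47% of all rows). The macrophage medians were 0.42 and 0.34, with mean log2 signals of 8.50 to 8.93, 9.05 to 9.56, and 8.82 to 9.15.

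Mean log2 signals of 8 endothelial genes ran from 11.25 to 11.61 in control, 11.18 to 11.69 in Δ1w, and 11.46 to 11.64 in Δ2w muscle, and those of 7 adipocyte genes from 6.45 to 8.03, 6.90 to 7.66, and 6.51 to 6.91. *Ucp1* of brown fat, a mitochondrial protein itself, was at 7.24 in control replicate 6 and between 3.01 and 3.60 in the other mice. The 8 skeletal muscle genes, which define the tissue, were bright in every mouse, with means of 17.31 to 17.48, and *Alas2*, the 1 erythroid gene measured of 6, lay between 8.29 and 9.70. An array gives a signal for each row, so that no marker stood at 0. The part of these cells and fibers in the values of the subunit genes was not tested. In RNA of a whole muscle, fewer cells of a type and less RNA per cell cannot be told apart.

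**Figure D4:**
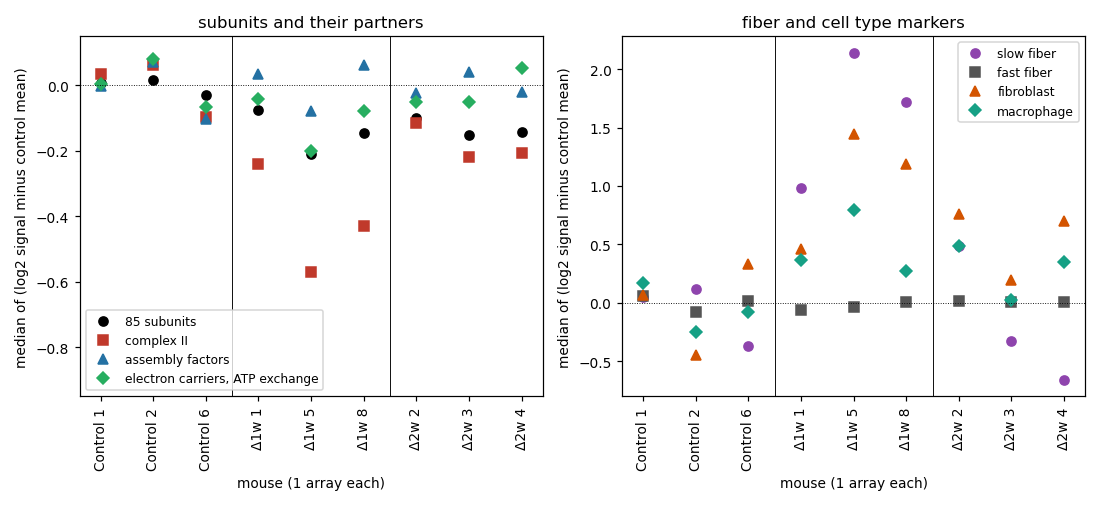
Each point is the median over a gene list of the log2 signal minus the mean of the 3 control mice, for 1 mouse. The 85 subunits lay between −0.21 and −0.08 in all Δ1w and Δ2w mice, the 4 genes of complex II as low as −0.57 in Δ1w replicate 5, and slow fiber genes between 0.98 and 2.14 in the Δ1w mice.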

How the data were processed

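The deposited table holds log2 signals of 9 arrays, 1 per mouse, which the authors made with Affymetrix Expression Console (labels) or by sst-rma in Transcriptome Analysis Console (methods), with background adjustment, normalization across arrays, and 1 value per gene. No source used here gives the genome build of the probes. Of 28846 rows 6640 control probes were left out, and 19572 of the 22206 gene rows have 1 symbol. All 85 members matched the RefSeq gene table of GRCm38.p6 by gene ID. Signals above 19 are near the ceiling (3 members), and those under 6 are dim (2 members). The number of arrays limits the precision, and no column was left unused.

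The 3 groups were fitted together in limma 3.58.1 (lmFit, eBayes; R 4.3.3; 6 residual degrees of freedom), with Benjamini-Hochberg adjustment over all gene rows and a threshold of 0.05. Lists were described by counts and medians. The members, lists, and motifs were chosen with earlier results of these data known. Genes named are fixed subunits and isoforms and, in each complex, the 2 smallest p-values in each comparison, 33 in all. From the assembly factors, electron carriers, and regulators the 3 smallest p-values in Δ1w muscle are named. The 3 smallest p-values of each marker list are not all named, and of those lists only *Dpt*, *Alas2*, and *Ucp1* are. Nothing in the labels pairs mice. Each mouse is a replicate, and p-values measure the spread between mice. Alternatives were leaving out each mouse, another normalization or centring, a signal minimum, other variance models, the name prefix, the LacZ allele, an unpaired t-test, and other promoter windows. Chosen after seeing the data were Y-linked signal as a covariate, the comparison with bright gene rows, and the counts at an unadjusted p and of groups that do not overlap under the alternatives. Figures were drawn with matplotlib 3.10.9.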

Additional observations from a re-analysis of the deposited data

How the results depend on the processing

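Leaving out 1 mouse at a time gave 0 to 2 called genes in Δ1w against control (2 without Δ1w replicate 1), and 0 in the other comparisons. The same ranges were 5 to 15, 2 to 6, and 1 to 5 genes at an unadjusted p under 0.05, in the order Δ1w against control, Δ2w against control, Δ1w against Δ2w. Shares of all rows were not computed for the called genes or for those at an unadjusted p. With 1 mouse fewer, groups overlap less by construction, and 28 to 42, 28 to 37, and 9 to 21 genes lay wholly below (8.95% to 16%, 7.25% to 13.2%, and 6.97% to 14.4% of all rows) and 4 to 9, 1 to 4, and 11 to 19 wholly above (8.53% to 15.4%, 7.52% to 13.2%, and 7.20% to 14.3% of all rows). Medians ranged in Δ1w against control from −0.19 to −0.094 (85 genes), −0.18 to −0.063 (complex I), −0.50 to −0.34 (complex II), −0.15 to −0.10 (complex III), −0.18 to −0.11 (complex IV), and −0.21 to −0.088 (complex V). In Δ2w against control they ranged from −0.14 to −0.12 (85 genes), −0.14 to −0.098 (complex I), −0.23 to −0.15 (complex II), −0.17 to −0.064 (complex III, highest without control replicate 1), −0.22 to −0.14 (complex IV), and −0.12 to −0.052 (complex V, highest without Δ2w replicate 4). In Δ1w against Δ2w they ranged from −0.055 to 0.035 (85 genes), −0.083 to 0.058 (complex I), −0.29 to −0.12 (complex II), −0.15 to −0.018 (complex III), −0.012 to 0.056 (complex IV), and −0.10 to 0.025 (complex V), each highest without Δ1w replicate 5, as were the 85 genes and complexes I, II, and V in Δ1w against control.

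In Δ1w against control 1 gene was called with a signal minimum of 6, 3 with a trended and robust variance, and 2 with the LacZ allele as a covariate. The trended and robust variance gave 13 genes at an unadjusted p under 0.05 in Δ2w against control and 10 in Δ1w against Δ2w, and a fit of only the 2 groups compared gave 8 in Δ1w against control. The unpaired t-test without adjustment gave 19, 18, and 11 (9.70%, 7.57%, and 6.94% of all rows). Quantile normalization a second time left 17 genes wholly below control in Δ1w muscle, and centring each array left 1 wholly above. Within the shared name prefix, Δ2w against control had a complex III median of −0.16, 2 genes at an unadjusted p under 0.05, and 2 wholly above. With the LacZ allele as a covariate, Δ1w against Δ2w had medians of −0.067 (85 genes), −0.092 (complex I), −0.32 (complex II), and −0.18 (complex III), and 7 genes at an unadjusted p under 0.05. In windows of 150 bases, 26.7% of the 75 member windows held CCAAT (23.4% of all windows), against 41.3% in the longer windows (37.4% of all windows). With Y-linked signal as a covariate 0 genes were called in each comparison, 14, 3, and 3 had an unadjusted p under 0.05, and the medians of the 85 genes against control stayed at −0.14 and −0.12. The causes of these shifts were not tested, beyond the fewer mice or genes that a setting itself brings. Where no share of all rows stands beside a count of genes here, that share was not computed for the setting.

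Single genes changed the sign of their difference in 50 of 1812 values, none of them called. When 1 mouse was left out their differences ranged, in Δ1w against control *Ndufa4l2* −0.19 to 0.25, *Atp5a1* −0.081 to 0.0021, *Cox6b2* −0.26 to 0.077, *Cox7a2* −0.038 to 0.23, *Cox7a2l* −0.063 to 0.17, *Cox8a* −0.15 to 0.029, *Atp5g2* −0.22 to 0.0091, and *Uqcr10* −0.026 to 0.073, then, in Δ2w against control *Cox7a2* −0.22 to 0.049, *Atp5a1* −0.078 to 0.0051, *Cox7a2l* −0.077 to 0.16, *Sdhc* −0.061 to 0.067, *Cox6a2* −0.10 to 0.025, *Atp5b* −0.021 to 0.017, and *Uqcrc2* −0.073 to 0.21, and, in Δ1w against Δ2w *Cox6b1* −0.015 to 0.037, *Ndufa4* −0.18 to 0.057, *Cox4i1* −0.12 to 0.041, *Atp5a1* −0.030 to 0.025, *Cox7a2l* −0.047 to 0.085, and *Ndufb8* −0.014 to 0.28. Quantile normalization a second time turned *Atp5b* in Δ2w muscle to −0.021 and *Atp5a1* in Δ1w against Δ2w to 0.016. Centring turned *Uqcr10* in Δ1w muscle to −0.012, *Sdhc* and *Atp5b* in Δ2w muscle to −0.00060 and −0.0083, and *Cox6b1* and *Cox7a2l* in Δ1w against Δ2w to −0.017 and −0.015. The prefix as a random block turned *Atp5a1* in Δ1w against Δ2w to 0.0065, and the shared prefix turned *Cox7a2l* in Δ2w muscle to −0.077. The LacZ covariate turned *Ndufa4l2* in Δ1w muscle to −0.13 and, in Δ1w against Δ2w, *Cox6a1* from 0.32 to −0.074 and *Atp5a1* to 0.0043.

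No paired analysis was possible because nothing in the labels pairs mice, and equal numbers under different name prefixes tie no mice. The shared prefix was used as a random block instead. With 3 mice a group, the 95% interval reached past a 1.5-fold change for 32, 29, and 29 of the 85 genes, and 3 genes were near the ceiling of the array.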
